A study of Mus musculus with 16 samples.

Results

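The nuclear genes for the subunits of respiratory chain complexes I to IV were followed in 16 poly(A) RNA libraries of C2C12, a mouse myoblast line. They were taken by symbol: Ndufa, Ndufb, Ndufc, Ndufs or Ndufv followed by a number, Sdha to Sdhd, Uqcr, and the Cox4i and Cox5 to Cox8 families. This gave 67 of the 24497 genes in the files, of which 37 belong to complex I, 4 to complex II, 8 to complex III and 18 to complex IV. The rule uses symbols alone, but it was set with earlier results of these data known. Expression was too low for a test in 3 of them (Cox4i2, Cox6b2 and Cox8c), which left 64. The symbols place Ndufa4 with complex I, although its protein is now regarded as a subunit of cytochrome c oxidase, and they include Cox7a2l, which joins complexes III and IV rather than serving as a catalytic part.

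All libraries came from C2C12 cells that the labels describe as C57BL/6 skeletal muscle of postnatal day 21. Their 8 groups of 2 combine a genotype (wild type, or MYOD-/- made with CRISPR-Cas9 and a screen of single cells), a stably transfected vector (a control vector, EV, or one for spliced MUNC, a noncoding RNA) and a culture state (proliferating, GM, or differentiating, DM). Every line carries a vector, and the MYOD-/- lines descend from a screened single-cell isolate, so a difference between genotypes is also a difference between isolates. The length of differentiation is given only as DM3. Nothing in the labels says that the replicates, 2 per group, were cultured separately; the p-values therefore reflect the spread between these libraries alone, which may be technical.

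Complexes I to III hand electrons from NADH, succinate and other donors to cytochrome c, and complex IV passes them to oxygen; complexes I, III and IV pump protons, and ATP synthase uses the gradient. Most subunits are encoded in the nucleus and a few in mitochondrial DNA. Heart and skeletal muscle replace some subunits of complex IV with muscle isoforms, and differentiating myoblasts are known for building up mitochondria.

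The total estimated count was 35.8 M to 108 M per library (median 61.2 M), and the members took 0.428% to 0.570% of it. The files hold 0 mitochondrially encoded genes, so the subunits from mitochondrial DNA were not analysed here. Myod1, the targeted gene, went against the genotype labels. It stood at 0.0149 to 0.291 TPM in the 4 EV libraries labelled WT, at 1.92 to 4.10 in the 4 MUNC libraries labelled WT, and at 4.35 to 39.7 in the 8 libraries labelled MYOD-/-. The sources used here do not give which part of Myod1 was deleted. The terms WT-labelled and knockout-labelled are used below for this reason, and a direction between genotypes is that of the labels. The summed level of 8 skeletal muscle markers was 9.96 to 26.6 TPM in the 8 GM libraries. In DM it was 27.4 and 9.59 TPM in the WT-labelled EV line, 208 and 91.6 in the WT-labelled MUNC line, 769 and 761 in the knockout-labelled EV line, and 1152 and 926 in the knockout-labelled MUNC line. Markers of other cell types moved too. The sum of 5 fibroblast-like markers was 47.6 to 141 TPM in GM. In DM it was 5649 and 4759 in the WT-labelled EV line and 859 and 504 in the WT-labelled MUNC line. In the knockout-labelled lines it was 1669 and 721 with EV and 1668 and 1211 with MUNC. Ly6a and Dcn supplied most of it in DM, with Ly6a alone at 5247 and 4669 in the WT-labelled EV line. Pdgfra, Dpt and Pi16 stayed at or below 3.73, 8.33 and 9.17 TPM in every library. The sum of 4 neural markers was 11.4 to 72.8 TPM in GM, 5.97 to 10.3 in WT-labelled DM and 151 to 351 in knockout-labelled DM, with Map2, Syp and Rbfox3 at or below 0.334 and Tubb3 supplying the rest. The sum of 4 epithelial markers was 21.8 and 14.2 TPM in WT-labelled EV DM, of which Krt8 supplied 20.6 and 13.7. It was at most 2.18 elsewhere, with Epcam at 0 in all 16 libraries. The 6 cardiac markers summed to 13.1 to 49.3 TPM, highest in WT-labelled EV GM. Nkx2-5 supplied 11.3 to 41.5 of it, and Myh6 stayed at or below 0.0180. The adipocyte (5), leukocyte (4) and endothelial (4) lists summed to at most 4.66, with Lep and Tie1 at 0 throughout. The part of any of these cell types in the results below was not tested. Replicate 2 of every group had 1.49% to 13.0% of its counts in Zrsr1, a splicing factor gene, against at most 0.0348% in replicate 1.

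Most members were abundant. In TPM, which corrects for transcript length and so allows genes to be compared, 56 of the 67 had a mean above 100 over the 16 libraries, and 59 reached at least 5. The median was 187 TPM for complex I, 175 for complex II, 322 for complex III and 317 for complex IV. Cox4i1, the common form of a regulatory subunit, was highest with 960 TPM, followed by Ndufa4 with 844 and Cox8a, the common form of the smallest subunit, with 836. In complex III, Uqcrh, the hinge protein that contacts cytochrome c1, led with 655 TPM and Uqcrq was lowest with 98.0. In complex II the range was narrow, from 158 TPM for Sdhb to 198 for Sdhd. The 8 members below 5 TPM were all alternative isoforms (Cox4i2, Cox6a2, Cox6b2, Cox7a1, Cox7b2, Cox8b, Cox8c and Ndufa4l2).

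Promoter windows from RefSeq (GRCm38.p6, 250 bases before to 50 after the start of a gene) were found for 53 of the 67 members, 55 windows in all, since Ndufa5 and Ndufa7 have a pair each. Their median GC content was 57.3%, against 52.7% over all 32851 windows. Motifs were searched as exact letters on both strands. The core of nuclear respiratory factor 1 (NRF1), a regulator known for binding respiratory chain promoters, was searched as GCGCA, any base, then GCGC, and was in 21.8% of the members' windows and 4.6% of all windows. The ETS core CCGGAAG was in 20.0% against 8.86%, and the YY1 core AAGATGGC in 12.7% against 2.75%. The E-box CAGCTG, a form that MyoD-family factors can bind, was in 9.09% against 16.3%. These shares describe letters in windows, not binding. The 250 bases before the start of 3 members are shown as single examples. Cox8b is a muscle isoform with 2 counts in all GM libraries together. Ndufs3 is a core subunit higher in DM of every line. Cox6a1 is an abundant common isoform that edgeR called in no test of differentiation. Each sequence is written 5′ to 3′ in the direction of transcription, from the minus strand of chr7:140900447-140900696 (Cox8b), chr2:90904722-90904971 (Ndufs3) and chr5:115348959-115349208 (Cox6a1). Capitals mark CAGCTG in Cox8b, CCGGAAG in Ndufs3, and in Cox6a1 a pair of NRF1 cores and an ETS core read from the opposite strand (CTTCCGG). The windows of Ndufv3, Ndufa6 and Ndufa7, also higher in DM of every line, hold 0 ETS cores. That of Cox7a1, another muscle isoform, holds 0 CAGCTG. A link between motif and expression was not tested.
Cox8b: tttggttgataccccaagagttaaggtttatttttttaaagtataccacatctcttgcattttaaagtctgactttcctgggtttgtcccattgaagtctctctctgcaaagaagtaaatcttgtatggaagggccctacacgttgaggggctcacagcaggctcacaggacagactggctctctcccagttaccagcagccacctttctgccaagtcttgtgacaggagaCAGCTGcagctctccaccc
Ndufs3: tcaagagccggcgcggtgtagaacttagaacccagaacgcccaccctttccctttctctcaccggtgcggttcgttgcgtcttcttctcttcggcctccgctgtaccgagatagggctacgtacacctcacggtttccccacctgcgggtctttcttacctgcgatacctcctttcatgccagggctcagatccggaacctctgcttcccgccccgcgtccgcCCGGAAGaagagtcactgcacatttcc
Cox6a1: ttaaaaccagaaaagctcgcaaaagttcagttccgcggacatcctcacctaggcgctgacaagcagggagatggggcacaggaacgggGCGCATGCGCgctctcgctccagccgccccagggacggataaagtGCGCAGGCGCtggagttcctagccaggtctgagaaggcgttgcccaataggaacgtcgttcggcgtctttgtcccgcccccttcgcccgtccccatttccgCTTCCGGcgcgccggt

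Differentiation moved single members up or down while most of the abundant ones stayed within 0.5 log2 units. Levels within a gene are given below as CPM scaled with edgeR's TMM factors, and changes as the log2 fold change of DM over GM ± SE from edgeR's quasi-likelihood test with Benjamini-Hochberg adjustment over 14972 genes. Of the 64 members tested, 7 were higher and 12 lower in DM in the WT-labelled EV line, where 19.2% of all genes were higher and 18.3% lower. In the WT-labelled MUNC line 10 were higher and 10 lower (20.5% and 19.2% of all genes). The knockout-labelled EV line had 12 higher and 2 lower (23.5% and 19.7% of all genes), and the knockout-labelled MUNC line had 15 higher and 0 lower (24.4% and 20.4% of all genes). For that 0, an unadjusted p under 0.05 was reached by 2 lower members and DESeq2 called 2. The median change of the members was -0.17, -0.06, 0.10 and 0.16 in these lines, beside 0.02, 0.06, 0.08 and 0.05 over all genes tested. Without 1 library of the line, 8 to 11, 10 to 11, 6 to 9 and 6 to 14 members were called in place of 19, 20, 14 and 15; each of the libraries cut its line's count by over 1.5 times, except GM replicate 1 and DM replicate 2 of the knockout-labelled MUNC line. In bulk RNA, fewer cells of a kind and less RNA per cell cannot be told apart.

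Among the 59 members of at least 5 TPM, the change stayed within 0.5 log2 units in 56, 49, 53 and 54 in the same order of lines. The share of all genes within that limit was not computed, so these counts do not compare the members with other genes. Called higher in all 4 lines were 5 members (Ndufv3, Ndufa6, Ndufa7, Ndufs3 and the muscle isoform Cox6a2), where 9.72% of all genes were. None was called lower in all 4, where 11% of all genes were; at an unadjusted p under 0.05 there were 2 such members, and by DESeq2 2. In 29 members no line passed the test, and the matching share of all genes was not computed. Averaged over the 4 lines, where more libraries bear on each estimate, 18 members were higher and 13 lower (36.3% and 30.4% of all genes). Ndufc1, an accessory subunit of the membrane arm, was the 1 member called in opposite directions. It fell in the WT-labelled EV line (-0.40 ± 0.13, adjusted p = 0.0299) and rose in the knockout-labelled MUNC line (0.46 ± 0.13, adjusted p = 0.0129). The first call was lost when GM replicate 1 or DM replicate 1 was left out (adjusted p up to 0.189), and the second was lost when GM replicate 2 or DM replicate 2 was left out (adjusted p up to 0.117).

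The direction of these counts depended on the scale. TPM, which is computed per library from all transcripts and not adjusted for composition, moved the median change of all genes up by 0.06, 0.07, 0.10 and 0.14 in the 4 lines. With limma on log2(TPM + 1), a scale that understates the change of scarce genes, the splits of higher and lower members became 12 and 6, 19 and 4, 32 and 0, and 38 and 0. The members' median was then -0.01, 0.09, 0.33 and 0.42, beside 0.09, 0.13, 0.19 and 0.19 over all genes. The shares of all genes called, given above, are those of edgeR and do not apply on this scale. The splits on this scale therefore do not compare the members with other genes. For the average of the lines the split was 37 and 4. Of the 152 calls over all comparisons that edgeR made, 26 were lost on that scale and 3 changed sign (Ndufc2, Ndufs8 and Uqcrfs1 in the average of the lines). With TPM rescaled by TMM, an alternative added after the data were seen, the splits were 8 and 13, 10 and 11, 10 and 4, and 15 and 2, and 18 and 19 for the average. The lower side of the counts in the knockout-labelled lines also moved with a stricter filter of 5 CPM in 2 libraries, which gave 9 and 3, and 10 and 2.

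**Figure D1:**
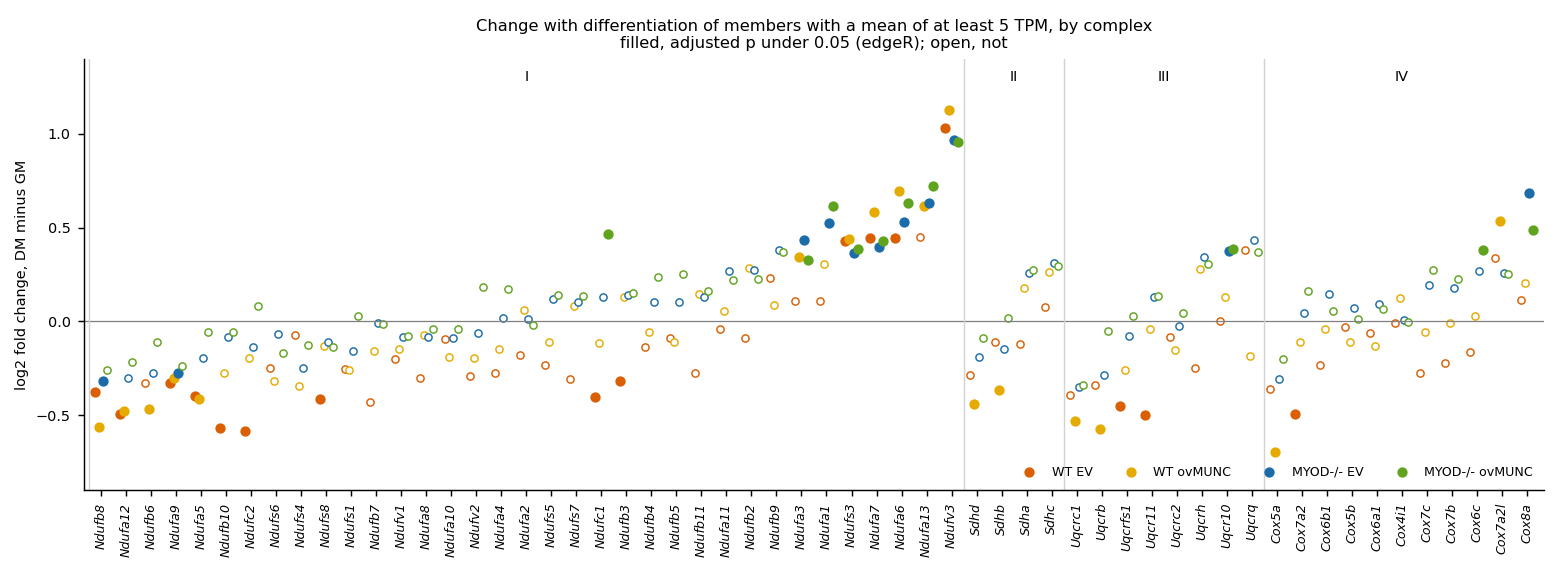
Log2 fold change of DM over GM for 58 members with a mean of at least 5 TPM, grouped by complex on the horizontal axis and ordered by their mean change. Each colour is 1 line, filled where the adjusted p (edgeR) was under 0.05; most points lie within 0.5 log2 units of 0, with Ndufv3 at the upper end and Cox5a and Ndufc2 at the lower.

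In complex I, the core subunit Ndufs3 was called higher in every line, and the core subunits Ndufs1 and Ndufv1 did not pass the test. Ndufs8, another core subunit, was called lower in the average of the lines, a call that changed sign with limma on log2(TPM + 1). Ndufs3 rose by 0.43, 0.44, 0.37 and 0.39 in the 4 lines, from 55.3 to 75.0 CPM in GM to 73.4 to 105 in DM. Fits without 1 library leave a group of 1, where lost power and dependence on that library cannot be told apart. Each Ndufs3 call was lost in at least 1 such fit. In the WT-labelled EV line it was lost when GM replicate 2 or DM replicate 2 was left out (adjusted p up to 0.125), in the WT-labelled MUNC line lost when GM replicate 2 or DM replicate 2 was left out (adjusted p up to 0.112), in the knockout-labelled EV line lost when any 1 of the 4 libraries was left out (adjusted p 0.0599 to 0.251), and in the knockout-labelled MUNC line lost when GM replicate 2, DM replicate 1 or DM replicate 2 was left out (adjusted p up to 0.189). Averaged over the lines, Ndufs3 rose by 0.41 ± 0.06, adjusted p = 0.000102, with or without each library.

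Ndufs1, which holds several iron-sulfur clusters, spanned 125 to 167 CPM in GM and 112 to 156 in DM, and its changes lay between -0.26 and 0.03 with none past the threshold. Ndufv1, which binds NADH and flavin, spanned 113 to 142 and 97.1 to 138 CPM, with changes between -0.20 and -0.08, also not past it. For both, the GM and DM ranges over all lines overlapped. Within lines, both DM libraries of Ndufs1 lay below both GM libraries in the WT-labelled EV, WT-labelled MUNC and knockout-labelled EV lines. Those of Ndufv1 did so in the WT-labelled EV line only.

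The largest change among abundant members was in Ndufv3, a small accessory subunit at the NADH-oxidising end (chromosome 17, 31520115 to 31531326). Its GM level was 34.9 and 30.8 (WT-labelled EV), 34.7 and 31.7 (WT-labelled MUNC), 31.2 and 22.8 (knockout-labelled EV), and 29.5 and 21.9 (knockout-labelled MUNC). Its DM level was 69.0 and 65.4 (WT-labelled EV), 67.7 and 77.2 (WT-labelled MUNC), 48.0 and 57.4 (knockout-labelled EV), and 52.7 and 47.1 (knockout-labelled MUNC). All 8 DM libraries lay above all 8 GM libraries. Ndufv3 rose in the WT-labelled EV (1.03 ± 0.18, adjusted p = 0.00119), WT-labelled MUNC (1.13 ± 0.18, adjusted p = 0.000652), knockout-labelled EV (0.97 ± 0.18, adjusted p = 0.00148) and knockout-labelled MUNC lines (0.96 ± 0.18, adjusted p = 0.00152). These 4 calls held without each library in turn. The gene has a pair of transcripts in the files, and both were higher in DM: the shorter, of 502 bases, spanned 67.4 to 132 TPM in GM and 214 to 290 in DM, and the longer, of 1594 bases, 10.5 to 20.0 in GM and 24.9 to 44.3 in DM. The shorter form made up 83.6% to 92.7% of Ndufv3 in every library.

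Other accessory subunits of complex I rose by smaller steps. Ndufa6, which docks the acyl carrier protein on the matrix arm, had 47.8 and 43.0 (WT-labelled EV), 36.8 and 34.7 (WT-labelled MUNC), 42.5 and 38.6 (knockout-labelled EV), and 40.4 and 37.9 (knockout-labelled MUNC) in GM. In DM it had 59.4 and 64.1 (WT-labelled EV), 54.8 and 61.0 (WT-labelled MUNC), 53.3 and 63.6 (knockout-labelled EV), and 63.8 and 57.6 (knockout-labelled MUNC). No DM library overlapped any GM library. Ndufa6 rose in the WT-labelled EV (0.44 ± 0.12, adjusted p = 0.0144), WT-labelled MUNC (0.69 ± 0.12, adjusted p = 0.00112), knockout-labelled EV (0.53 ± 0.12, adjusted p = 0.00497) and knockout-labelled MUNC lines (0.63 ± 0.12, adjusted p = 0.00171). The WT-labelled EV call was lost when GM replicate 2 or DM replicate 2 was left out (adjusted p up to 0.111), and the knockout-labelled EV call was lost when GM replicate 2 or DM replicate 2 was left out (adjusted p up to 0.0833). Ndufa7, a matrix-arm subunit, rose by 0.44, 0.58, 0.40 and 0.43. Its call in the WT-labelled EV line was lost when any 1 of the 4 libraries was left out (adjusted p 0.0651 to 0.123), in the WT-labelled MUNC line lost when GM replicate 1 or DM replicate 2 was left out (adjusted p up to 0.0673), in the knockout-labelled EV line lost when any 1 of the 4 libraries was left out (adjusted p 0.14 to 0.208), and in the knockout-labelled MUNC line lost when GM replicate 1, GM replicate 2 or DM replicate 1 was left out (adjusted p up to 0.524). Of its 4 transcripts the coding one spanned 176 to 214 TPM in GM and 306 to 418 in DM, while the 3 noncoding ones stayed at or below 38.7 TPM. Averaged over the 4 lines, 3 more accessory subunits, picked after their values were seen, rose with or without each library: Ndufa13, a subunit also known as the cell death regulator GRIM-19 (0.60 ± 0.09, adjusted p = 8.50e-05), and the small membrane subunits Ndufa1 (0.39 ± 0.07, adjusted p = 0.000352) and Ndufa3 (0.30 ± 0.06, adjusted p = 0.000741).

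**Figure D2:**
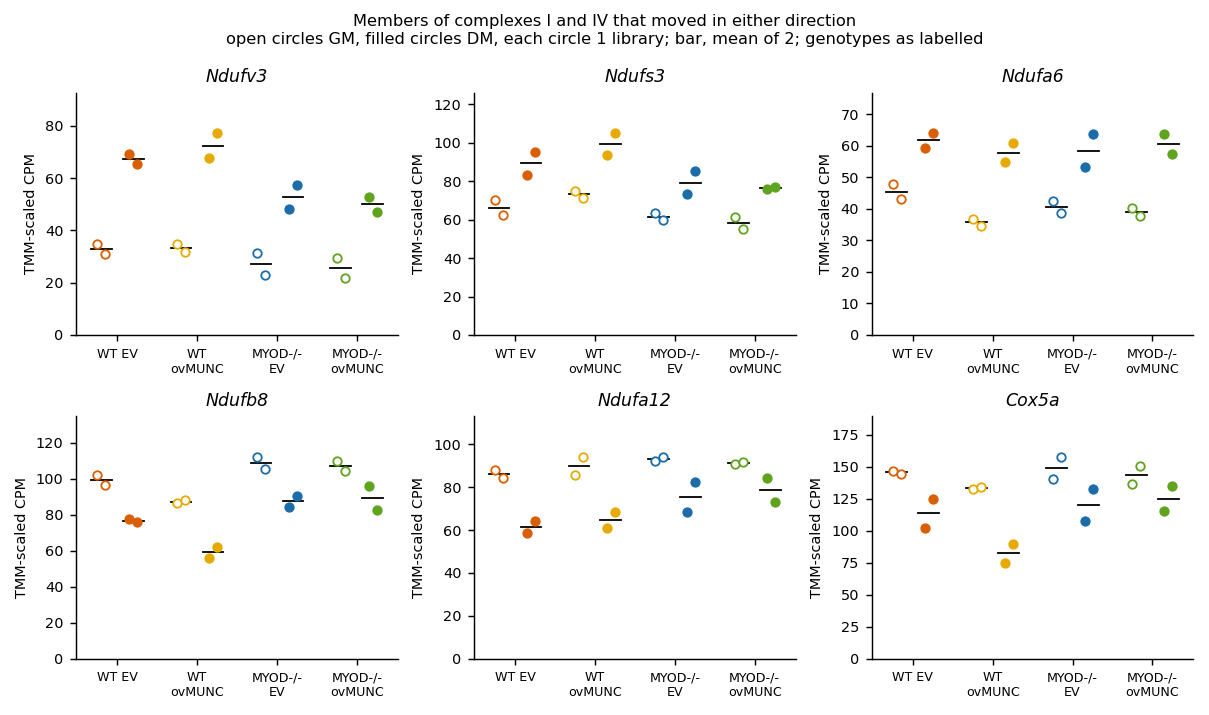
TMM-scaled CPM of 6 members in each library (vertical axes), by line on the horizontal axis. Open circles are GM, filled circles DM and bars the mean of 2 libraries; in Ndufv3 and Ndufa6 every DM library lies above every GM library, and in Ndufb8, Ndufa12 and Cox5a the DM pair lies below the GM pair of its line.

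A second set of complex I accessory subunits fell. Ndufb8, a membrane-arm subunit widely used as an antibody marker of assembled complex I, held 102 and 96.6 (WT-labelled EV), 86.5 and 88.0 (WT-labelled MUNC), 112 and 105 (knockout-labelled EV), and 109.8 and 104 (knockout-labelled MUNC) CPM in GM. In DM it held 77.4 and 75.9 (WT-labelled EV), 56.0 and 62.2 (WT-labelled MUNC), 84.3 and 90.4 (knockout-labelled EV), and 95.8 and 82.8 (knockout-labelled MUNC). In each line both DM libraries lay below both GM libraries. Ndufb8 fell in the WT-labelled EV (-0.37 ± 0.11, adjusted p = 0.0167), WT-labelled MUNC (-0.56 ± 0.11, adjusted p = 0.00177) and knockout-labelled EV lines (-0.32 ± 0.11, adjusted p = 0.0322) and did not pass in the knockout-labelled MUNC line (-0.26 ± 0.11, adjusted p = 0.0667). The first call was lost when GM replicate 1, DM replicate 1 or DM replicate 2 was left out (adjusted p up to 0.0916), and the third was lost when GM replicate 1, DM replicate 1 or DM replicate 2 was left out (adjusted p up to 0.101). Averaged over the lines, Ndufb8 (-0.38 ± 0.05, adjusted p = 6.66e-05), Ndufa12, an accessory subunit of the matrix arm (-0.37 ± 0.06, adjusted p = 0.000215), and Ndufa9, which binds a nucleotide cofactor (-0.29 ± 0.05, adjusted p = 0.00042), fell with or without each library.

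In the WT-labelled EV line the largest falls in complex I were in subunits of the membrane arm. Ndufc2 fell from 55.9 and 49.3 to 36.7 and 33.5 CPM (-0.58 ± 0.11, adjusted p = 0.00172) and Ndufb10 from 96.4 and 90.9 to 61.9 and 64.6 (-0.57 ± 0.12, adjusted p = 0.00429). Both calls held without each library. In the other 3 lines neither passed, with Ndufc2 at -0.20, -0.14 and 0.08 and Ndufb10 at -0.28, -0.08 and -0.06. The interaction terms, given at the end, called neither gene. Of the 37 members of complex I, 5 were higher and 9 lower in the WT-labelled EV line, 7 and 5 in the WT-labelled MUNC line, and 8 and 2 in the knockout-labelled EV line; in the knockout-labelled MUNC line the 9 that passed were all higher. Taken over all genes, the shares called higher were 19.2%, 20.5%, 23.5% and 24.4% in the same order of lines, and those called lower 18.3%, 19.2%, 19.7% and 20.4%.

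Complex II, which oxidises succinate and is part of the citric acid cycle, went both ways when the 4 lines were averaged. Sdha, the flavoprotein that oxidises succinate, rose by a small step (0.15 ± 0.05, adjusted p = 0.0282). Leaving out 1 library ended that call in 12 of 16 fits (adjusted p up to 0.173), all except those without replicate 1 of WT-labelled EV GM, WT-labelled MUNC GM, knockout-labelled EV DM or knockout-labelled MUNC GM. Sdhc, a membrane anchor, rose (0.24 ± 0.06, adjusted p = 0.0052), and Sdhd, the other anchor, fell (-0.25 ± 0.06, adjusted p = 0.00261). Sdhb, the iron-sulfur subunit, did not pass (-0.15 ± 0.07, adjusted p = 0.0653). Within single lines only 2 tests of differentiation passed, both in the WT-labelled MUNC line. Sdhd went there from 129 and 111 to 85.6 and 90.8 CPM (-0.44 ± 0.12, adjusted p = 0.0114) and Sdhb from 77.7 and 71.4 to 53.4 and 62.2 (-0.37 ± 0.13, adjusted p = 0.0491). The first call was lost when GM replicate 1 or DM replicate 1 was left out (adjusted p up to 0.0999), and the second was lost when any 1 of the 4 libraries was left out (adjusted p 0.057 to 0.245).

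In complex III, 2 of 8 members were lower in each WT-labelled line (18.3% and 19.2% of all genes), and 1 member, the small subunit Uqcr10, was higher in each knockout-labelled line, where 23.5% and 24.4% of all genes were (EV 0.38 ± 0.13, adjusted p = 0.0366; MUNC 0.39 ± 0.13, adjusted p = 0.0315). The Uqcr10 call with EV was lost when GM replicate 1, GM replicate 2 or DM replicate 2 was left out (adjusted p up to 0.323), and that with MUNC was lost when any 1 of the 4 libraries was left out (adjusted p 0.059 to 0.249). Uqcrc1, a core protein outside the electron path, stood at 213 and 233 (WT-labelled EV), 180.2 and 199.8 (WT-labelled MUNC), 169 and 206 (knockout-labelled EV), and 168 and 198 (knockout-labelled MUNC) CPM in GM. In DM it stood at 149 and 191 (WT-labelled EV), 120.2 and 142 (WT-labelled MUNC), 132 and 163 (knockout-labelled EV), and 149 and 140.0 (knockout-labelled MUNC). Both DM libraries lay below both GM libraries in each line. Uqcrc1 fell past the threshold in 1 line, the WT-labelled MUNC line (-0.53 ± 0.17, adjusted p = 0.0252), a call lost when GM replicate 2 or DM replicate 1 was left out (adjusted p up to 0.157), and in the average of the lines (-0.40 ± 0.08, adjusted p = 0.00118). Uqcrc2, the other core protein, did not pass in any line (changes from -0.15 to 0.05). Uqcrfs1, the Rieske iron-sulfur protein that carries electrons, fell in the WT-labelled EV line from 118 and 103 to 79.8 and 82.1 CPM (-0.45 ± 0.13, adjusted p = 0.0215). That call was lost when GM replicate 1, DM replicate 1 or DM replicate 2 was left out (adjusted p up to 0.144). Uqcrb, the small subunit near the quinone site, fell in the WT-labelled MUNC line (-0.57 ± 0.17, adjusted p = 0.0216), a call lost when GM replicate 1, DM replicate 1 or DM replicate 2 was left out (adjusted p up to 0.152). Uqcr11, the smallest subunit, fell in the WT-labelled EV line from 56.2 and 55.5 to 36.4 and 42.8 CPM (-0.50 ± 0.15, adjusted p = 0.0194), a call lost when GM replicate 1, GM replicate 2 or DM replicate 1 was left out (adjusted p up to 0.158). Its levels in the other lines are given with the comparison between lines.

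In complex IV, the common subunits moved in both directions. Cox5a, a matrix-side subunit, stood at 147 and 145 (WT-labelled EV), 133 and 134 (WT-labelled MUNC), 140.2 and 158 (knockout-labelled EV), and 136 and 151 (knockout-labelled MUNC) CPM in GM. In DM it stood at 102 and 125 (WT-labelled EV), 75.0 and 89.6 (WT-labelled MUNC), 108 and 133 (knockout-labelled EV), and 115 and 135 (knockout-labelled MUNC). It fell in the WT-labelled MUNC line (-0.70 ± 0.15, adjusted p = 0.00362), where the call held without each library, and in the average of the lines (-0.39 ± 0.07, adjusted p = 0.00066). In the other lines the values were -0.36 ± 0.15, -0.31 ± 0.15 and -0.20 ± 0.15, not past the threshold. Cox8a, in contrast, rose in the knockout-labelled EV line from 122 and 117 to 166 and 217 CPM (0.68 ± 0.14, adjusted p = 0.0027), a call that held without each library. In the knockout-labelled MUNC line Cox8a rose from 139.9 and 129 to 197 and 181 (0.49 ± 0.14, adjusted p = 0.0157), a call lost when GM replicate 2 or DM replicate 1 was left out (adjusted p up to 0.121). Cox8a did not pass in the WT-labelled EV (0.11 ± 0.14) or MUNC line (0.21 ± 0.14). The change of Cox4i1 stayed between -0.01 and 0.12 in every line with no call, and that of Cox6a1 between -0.13 and 0.09; with limma on log2(TPM + 1), Cox4i1 in the knockout-labelled MUNC line was at 0.26 and the average of Cox6a1 at 0.19, both past the threshold. Cox7a2, the common partner of the muscle isoform Cox7a1, fell in the WT-labelled EV line (-0.49 ± 0.11, adjusted p = 0.00573), a call that held without each library, and did not pass in the others (-0.11 ± 0.11, 0.04 ± 0.11 and 0.16 ± 0.11).

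The muscle isoforms of complex IV were scarce in every library and made up a small share of their pairs. Cox6a2, the heart and muscle form of subunit 6a (chromosome 7, 128205435 to 128206366), stood in GM at 0.0485 and 0.0381 (WT-labelled EV), 0 and 0.0542 (WT-labelled MUNC), 0.134 and 0.125 (knockout-labelled EV), and 0.137 and 0.0730 (knockout-labelled MUNC) CPM. In DM it stood at 1.12 and 3.13 (WT-labelled EV), 0.451 and 0.565 (WT-labelled MUNC), 1.25 and 1.57 (knockout-labelled EV), and 0.874 and 0.557 (knockout-labelled MUNC). All 8 DM libraries lay above all 8 GM libraries, with the highest value in the WT-labelled EV line, in replicate 2. Cox6a2 rose in the WT-labelled EV (5.54 ± 0.74, adjusted p = 0.000214), WT-labelled MUNC (4.22 ± 0.83, adjusted p = 0.00214), knockout-labelled EV (3.42 ± 0.68, adjusted p = 0.00198) and knockout-labelled MUNC lines (2.71 ± 0.66, adjusted p = 0.00616). The last call was lost when GM replicate 2 was left out (adjusted p up to 0.0509). The GM groups rest on 5, 3, 10 and 13 counts, so the size of the change is uncertain: in the WT-labelled MUNC line the ratio of pooled CPM was 20.8, with a 95% exact interval of 6.88 to 103 that covers counting error only. As a share of the summed TPM of Cox6a1 and Cox6a2, Cox6a2 reached at most 2.38%.

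Cox8b, the muscle form of subunit 8 (chromosome 7, 140898942 to 140900446), was listed at 0 in 7 of the 8 GM libraries. The GM libraries held 2 counts in all, both in the knockout-labelled MUNC line. In DM it stood at 0.0329 and 0.0679 (WT-labelled EV), 0.373 and 0.220 (WT-labelled MUNC), 0.249 and 1.21 (knockout-labelled EV), and 0.629 and 0.900 (knockout-labelled MUNC) CPM. It was lowest in the WT-labelled EV line and highest in 1 library of the knockout-labelled EV line. With a floor of 3 counts over the group in GM, the DM level was at least 1.85-fold higher in the WT-labelled EV line, at least 10.7-fold in the WT-labelled MUNC line and at least 19.3-fold in the knockout-labelled EV line. In the knockout-labelled MUNC line the ratio was 47.0, from 117 against 2 counts (95% exact interval 12.7 to 393, counting error only). The test was passed in the WT-labelled MUNC line (adjusted p = 0.0114), the knockout-labelled EV line (0.00493) and the knockout-labelled MUNC line (0.00471), and not in the WT-labelled EV line (0.137). The WT-labelled MUNC call was lost when GM replicate 1 was left out (adjusted p up to 0.0514). Cox8b reached at most 1.04% of the summed TPM of Cox8a and Cox8b.

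Among the DM groups, Cox8b and the summed muscle markers were both lowest in the WT-labelled EV line. Cox6a2 had its highest mean there, but that rested on replicate 2. Its TPM were 4.84 and 12.05 in that group, against 5.72 and 6.57 in knockout-labelled EV DM. The part of muscle cell content in either isoform was not tested. Cox8b is also known from brown fat. Of 6 brown or beige adipocyte markers, Ucp1, the defining one, was at 0 in all 16 libraries. The 6 summed to between 0.832 and 1.99 TPM in GM and between 1.02 and 4.69 in DM. Dio2 rose in every line, from at most 0.573 TPM in GM. In DM it was 1.53 and 0.434 (WT-labelled EV), 3.37 and 0.936 (WT-labelled MUNC), 3.29 and 2.88 (knockout-labelled EV), and 3.83 and 3.73 (knockout-labelled MUNC). Cpt1b showed no such rise, and Cidea, Elovl3 and Prdm16 stayed at or below 0.138. The part of brown fat cells in Cox8b was not tested.

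Cox7a1, the muscle form of subunit 7a (chromosome 7, 30184171 to 30186030), had another order of levels. In GM it stood at 0.598 and 0.400 (WT-labelled EV), 0.174 and 0.144 (WT-labelled MUNC), 0.428 and 0.401 (knockout-labelled EV), and 0.153 and 0.0913 (knockout-labelled MUNC) CPM. In DM it stood at 1.29 and 0.814 (WT-labelled EV), 0.118 and 0.239 (WT-labelled MUNC), 0.153 and 0.375 (knockout-labelled EV), and 0.414 and 0.450 (knockout-labelled MUNC). Both WT-labelled EV pairs lay above those of the WT-labelled MUNC line, and DM lay above GM in the WT-labelled EV and knockout-labelled MUNC lines and below it in the knockout-labelled EV line. The test of differentiation was passed in 1 line, the knockout-labelled MUNC line (1.79 ± 0.51, adjusted p = 0.0143), a call lost when GM replicate 2 or DM replicate 2 was left out (adjusted p up to 0.104). The values in the other lines were 1.07 ± 0.44, 0.22 ± 0.52 and -0.64 ± 0.50. Cox7a1 made up 0.394% to 7.61% of the summed TPM of Cox7a1 and Cox7a2, with both WT-labelled EV DM libraries (7.61% and 4.71%) at the top.

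Ndufa4l2, a paralog of Ndufa4 known to be induced by hypoxia (chromosome 10, 127509274 to 127517154), was detected mainly in 1 group. Its CPM in GM were 0.113 and 0.0763 (WT-labelled EV), 0.0634 and 0.0181 (WT-labelled MUNC), 0.107 and 0.0501 (knockout-labelled EV), and 0.122 and 0.0730 (knockout-labelled MUNC). In DM they were 0.768 and 0.421 (WT-labelled EV), 0 and 0.105 (WT-labelled MUNC), 0.153 and 0.0713 (knockout-labelled EV), and 0.0153 and 0.0474 (knockout-labelled MUNC). Both WT-labelled EV DM libraries lay above every other library. Ndufa4l2 rose in that line (2.62 ± 0.77, adjusted p = 0.0196), a call lost when GM replicate 1, GM replicate 2 or DM replicate 1 was left out (adjusted p up to 0.122). Beside it, 4 of 10 tested hypoxia targets, Ndufa4l2 among them, rose in the same line and none fell, where 19.2% of all genes were higher and 18.3% lower. Ndufa4l2 is the member beside which the list is given, so its own rise adds nothing to that count. The others that rose were Car9, an acid-balancing enzyme (2.80 ± 0.79, adjusted p = 0.0168), Vegfa, an angiogenic factor (0.57 ± 0.17, adjusted p = 0.0212), and Ero1a, an oxidase of the endoplasmic reticulum (1.24 ± 0.24, adjusted p = 0.00188). In the other lines none of the 10 rose and 2, 4 and 4 fell. Of all genes, 20.5%, 23.5% and 24.4% were higher in these lines and 19.2%, 19.7% and 20.4% lower. Whether oxygen differed was not tested. Cox4i2, the other isoform known from hypoxia, had at most 7 counts in a library, and the testis isoforms Cox6b2 and Cox8c at most 2 and 0. Cox7b2, a testis form of subunit 7b, was tested at mean levels under 1 CPM and rose in the WT-labelled EV line (1.89 ± 0.52, adjusted p = 0.0137), a call lost when GM replicate 1, GM replicate 2 or DM replicate 2 was left out (adjusted p up to 0.0972).

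**Figure D3:**
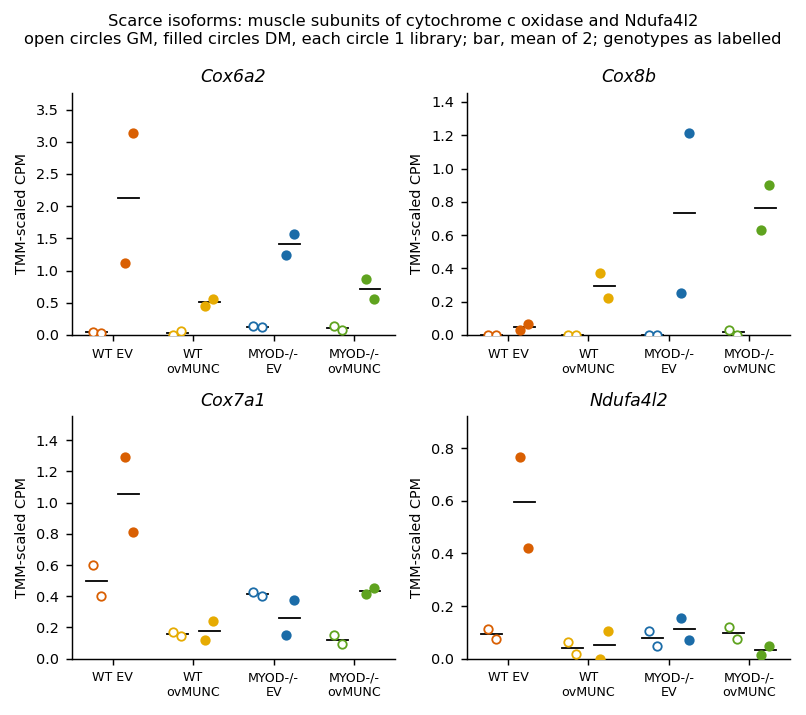
TMM-scaled CPM of 4 scarce isoforms in each library (vertical axes), by line on the horizontal axis. Open circles are GM, filled circles DM and bars the mean of 2 libraries. Ndufa4l2 is highest in WT-labelled EV DM, and the highest Cox6a2 value is replicate 2 of that group. Cox8b has its highest values in the knockout-labelled DM groups, and no value exceeds 3.13 CPM.

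Summed over members, the complexes shifted by little on the TMM scale and by more in TPM. In the WT-labelled EV line the ratio of DM to GM in summed TPM was 1.03 for complex I, 1.03 for complex II, 0.945 for complex III and 1.05 for complex IV, with overlapping libraries in all 4. On the TMM scale, added after the data were seen, these ratios were 0.928, 0.915, 0.858 and 0.960, and both DM libraries lay below both GM libraries in complexes I to III. In the WT-labelled MUNC line the TPM ratios were 1.12, 1.11, 1.05 and 1.14 and the TMM ratios 1.00, 1.01, 0.876 and 1.05. In the knockout-labelled EV line they were 1.26, 1.23, 1.25 and 1.32 in TPM against 1.09, 1.07, 1.01 and 1.11. In the knockout-labelled MUNC line they were 1.36, 1.30, 1.34 and 1.36 in TPM against 1.13, 1.11, 1.04 and 1.11. In both knockout-labelled lines both DM libraries lay above both GM libraries in TPM for every complex, while on the TMM scale they overlapped in complexes I to III with EV and in complex III with MUNC. On both scales complex III had the lowest ratio in the WT-labelled lines. No test was made of these sums.

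**Figure D4:**
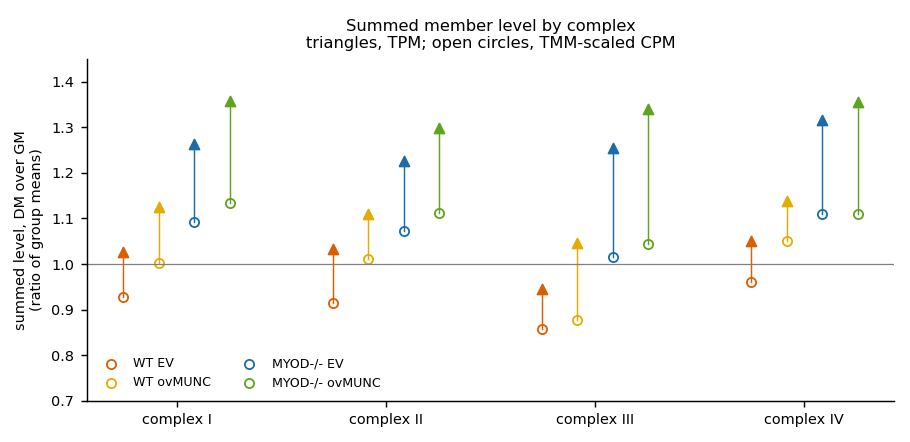
Ratio of DM to GM in the summed level of each complex (vertical axis), by complex and line. Triangles are sums of TPM and open circles sums of TMM-scaled CPM, from group means of 2 libraries; the TPM ratio is higher in every case, and complex III has the lowest ratios in the WT-labelled lines.

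The genes around the chain were described from lists of the same pathway, with examples picked after their values were seen. Their counts stand beside the shares of all genes called, which were 19.2%, 20.5%, 23.5% and 24.4% higher and 18.3%, 19.2%, 19.7% and 20.4% lower in the 4 lines, and beside medians over all genes of 0.02, 0.06, 0.08 and 0.05. Among 19 genes of mitochondrial protein import and cristae, none rose and 10, 11, 11 and 12 fell with differentiation in the 4 lines, with medians of -0.37, -0.49, -0.45 and -0.44. They include Tomm40, the channel of the outer membrane (-1.41, -1.38, -1.31 and -1.29), Timm50, a receptor of the inner membrane (-1.07, -1.42, -1.33 and -1.22), and Immt, a cristae organiser (-0.38, -0.64, -0.53 and -0.43), all called in each line. Of 18 ATP synthase subunits none rose in a single line, and 6, 5 and 1 fell in the first 3 lines. Of 19 genes of the citric acid cycle 1, 1, 2 and 2 rose and 8, 6, 6 and 7 fell, with medians of -0.31, -0.33, -0.20 and -0.0027. Cs, citrate synthase, fell in every line (-0.53, -0.39, -0.49 and -0.49).

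Of 32 assembly factors for complexes II to IV, 5, 5, 6 and 8 rose and 4, 10, 5 and 6 fell, with medians of -0.08, -0.08, -0.06 and -0.05. Apart from the 10 that fell in the WT-labelled MUNC line, these counts were near or under the shares of all genes. Higd2a, an assembly factor of complex IV, rose by 0.46, 1.01, 1.14 and 1.08, and Cox14, another, by 0.64, 0.78, 0.90 and 1.10. Cox10, which makes heme for complex IV, fell in every line (-0.66, -0.70, -0.74 and -0.81). Of 15 complex I assembly factors 1, 1, 1 and 2 rose and 4, 6, 4 and 3 fell, and of 9 electron carriers and feeding dehydrogenases 0, 1, 0 and 1 rose and 3, 5, 4 and 2 fell. Among 19 tested regulators of mitochondrial biogenesis, 4, 1, 2 and 1 rose and 4, 3, 4 and 2 fell. Ppargc1a, the coactivator PGC-1 alpha, rose in the WT-labelled EV (2.39 ± 0.52, adjusted p = 0.00409), knockout-labelled EV (1.68 ± 0.50, adjusted p = 0.0181) and knockout-labelled MUNC lines (2.10 ± 0.50, adjusted p = 0.00578). In the WT-labelled MUNC line Ppargc1a was at 1.06 ± 0.88, adjusted p = 0.374. Nrf1, the factor named above for its motif, fell in all 4 lines (-0.81, -0.50, -0.82 and -0.73).

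Between the genotype labels (knockout-labelled minus WT-labelled), few members were called in GM and more in DM. In GM with EV, 0 members were higher and 2 lower, where 4.58% of all genes were higher and 5.77% lower; at an unadjusted p under 0.05 there was 1 higher member, and DESeq2 called 1. Ndufa4 stood at 196 and 171 CPM in the WT-labelled and 134 and 108 in the knockout-labelled libraries (-0.60 ± 0.15, adjusted p = 0.0252). Ndufa5, a matrix-arm accessory subunit, stood at 33.1 and 29.6 against 22.2 and 23.9 CPM (-0.44 ± 0.12, adjusted p = 0.0354). The Ndufa4 call was lost when WT-labelled replicate 1, WT-labelled replicate 2 or knockout-labelled replicate 2 was left out (adjusted p up to 0.218), and the Ndufa5 call was lost when any 1 of the 4 libraries was left out (adjusted p 0.0728 to 0.227). In GM with MUNC, 1 member was higher and 1 lower, where 4.98% of all genes were higher and 5.02% lower. These were Cox7b2 (2.09 ± 0.58, adjusted p = 0.0441), lost when any 1 of the 4 libraries was left out (adjusted p 0.0563 to 0.253), and Sdha, which was lower in the knockout-labelled libraries (-0.47 ± 0.11, adjusted p = 0.0168), lost when WT-labelled replicate 1, WT-labelled replicate 2 or knockout-labelled replicate 2 was left out (adjusted p up to 0.104). DESeq2 called 1 higher and 4 lower, and limma on log2(TPM + 1) called 1 and 3.

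In DM with EV, 15 members were higher in the knockout-labelled and 2 in the WT-labelled libraries, where 15.3% of all genes were higher and 16.1% lower. Uqcr11 had 36.4 and 42.8 CPM in the WT-labelled and 61.4 and 82.0 in the knockout-labelled libraries (0.86 ± 0.15, adjusted p = 0.00133). Cox7a2 had 45.6 and 48.0 against 71.1 and 81.6 (0.71 ± 0.11, adjusted p = 0.000957). These calls and that of Ndufc1 (0.68 ± 0.13, adjusted p = 0.00252) held without each library; without any 1 of the 4 libraries, 5 to 10 members were called. Cox8b was higher, at 0.0329 and 0.0679 against 0.249 and 1.21 (adjusted p = 0.0138), a call lost when WT-labelled replicate 1, WT-labelled replicate 2 or knockout-labelled replicate 2 was left out (adjusted p up to 0.111). The 2 lower members were Ndufa4l2 (-2.40 ± 0.76, adjusted p = 0.0325), lost when WT-labelled replicate 1, knockout-labelled replicate 1 or knockout-labelled replicate 2 was left out (adjusted p up to 0.206), and Cox7a1 (-1.98 ± 0.46, adjusted p = 0.00812), lost when knockout-labelled replicate 1 was left out (adjusted p up to 0.072). With a filter of 5 CPM in 2 libraries, which leaves out these scarce isoforms, the split was 13 higher and 0 lower.

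In DM with MUNC, 4 members were higher and 3 lower, where 12.8% of all genes were higher and 9.89% lower. Ndufb8 had 56.0 and 62.2 CPM in the WT-labelled and 95.8 and 82.8 in the knockout-labelled libraries (0.59 ± 0.11, adjusted p = 0.0024), and its call was the 1 of 7 that held without each library. Cox5a was higher (0.60 ± 0.15, adjusted p = 0.0142), a call lost when WT-labelled replicate 1 or knockout-labelled replicate 2 was left out (adjusted p up to 0.128). Sdhb (0.44 ± 0.13, adjusted p = 0.0379) and Ndufa5 (0.39 ± 0.12, adjusted p = 0.0356) were also higher, and each was lost without any 1 of the 4 libraries (adjusted p up to 0.248 and 0.206). Cox7a2l, the supercomplex factor, was lower (295 and 366 against 170.0 and 202 CPM, -0.83 ± 0.16, adjusted p = 0.0041), a call lost when WT-labelled replicate 2 was left out (adjusted p up to 0.0515). Ndufs3 (-0.38 ± 0.12, adjusted p = 0.0444) and Sdha (-0.37 ± 0.11, adjusted p = 0.0264) were lower, and each was lost without any 1 of the 4 libraries (adjusted p up to 0.282 and 0.182). Without 1 library of these groups 2 to 3 members were called, whichever library it was. The split was 10 higher and 5 lower by DESeq2, 9 and 5 with a filter of 5 CPM in 2 libraries, and 16 and 2 with limma on log2(TPM + 1).

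For the MUNC vector (MUNC minus EV), members passed the test in the WT-labelled cells and none did in the knockout-labelled cells; the difference between these responses was not tested. In WT-labelled GM, 1 member was higher with MUNC and 3 lower, where 6.04% of all genes were higher and 7.71% lower. The WT-labelled EV libraries used here also serve the genotype comparison in GM with EV, so these comparisons are not independent. Ndufa4 was at 196 and 171 CPM with EV and 124 and 107 with MUNC (-0.67 ± 0.15, adjusted p = 0.0121), a call lost when EV replicate 1 or MUNC replicate 2 was left out (adjusted p up to 0.118). Ndufa5 was lower as well (-0.53 ± 0.12, adjusted p = 0.0127), a call lost when EV replicate 1, MUNC replicate 1 or MUNC replicate 2 was left out (adjusted p up to 0.108). Ndufb2, lower (-0.62 ± 0.18, adjusted p = 0.0435), and Sdhc, higher (0.41 ± 0.12, adjusted p = 0.0493), were each lost without any 1 of the 4 libraries (adjusted p up to 0.225 and 0.280). The split was 3 higher and 3 lower by DESeq2, 0 and 3 with an effective length offset, and 2 and 3 with limma on TMM-scaled TPM.

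In WT-labelled DM, 10 members were higher with MUNC and 11 lower, where 15.6% of all genes were higher and 17.7% lower. This comparison shares its WT-labelled EV libraries with the genotype comparison in DM with EV, so they are not independent. Sdhc had 87.0 and 81.3 CPM with EV and 127 and 129 with MUNC (0.60 ± 0.12, adjusted p = 0.00358), Ndufb3, a membrane-arm subunit, 25.0 and 25.9 against 36.9 and 42.7 (0.64 ± 0.12, adjusted p = 0.00149), and Uqcr11 36.4 and 42.8 against 57.8 and 70.2 (0.69 ± 0.15, adjusted p = 0.00387). Ndufa5 was lower, at 25.5 and 22.1 against 15.6 and 17.0 (-0.54 ± 0.12, adjusted p = 0.00472). The scarce isoform Cox7a1 was lower too (-2.49 ± 0.47, adjusted p = 0.00206). These 5 calls held without each library, and without any 1 of the 4 libraries 8 to 13 members were called in place of 21. Uqcrh was higher (0.54 ± 0.19, adjusted p = 0.0439), a call lost when EV replicate 2, MUNC replicate 1 or MUNC replicate 2 was left out (adjusted p up to 0.265). Ndufa4l2 was lower (-3.18 ± 0.77, adjusted p = 0.00876), a call lost when EV replicate 1 was left out (adjusted p up to 0.0515). Cox6a2 was lower (-2.05 ± 0.55, adjusted p = 0.0151), a call lost when EV replicate 2, MUNC replicate 1 or MUNC replicate 2 was left out (adjusted p up to 0.177), and so was Cox7b2 (-1.36 ± 0.47, adjusted p = 0.0459), lost when any 1 of the 4 libraries was left out (adjusted p 0.0567 to 0.318). All 4 subunits of complex II were called, Sdha (0.47) and Sdhc higher and Sdhb (-0.40) and Sdhd (-0.36) lower. Sdha was lost when MUNC replicate 2 was left out (adjusted p up to 0.0536), Sdhb was lost when EV replicate 2, MUNC replicate 1 or MUNC replicate 2 was left out (adjusted p up to 0.24), and Sdhd was lost when any 1 of the 4 libraries was left out (adjusted p 0.0682 to 0.163). With a filter of 5 CPM in 2 libraries the split of all members was 12 higher and 7 lower, and with limma on log2(TPM + 1) it was 14 and 10. In the same comparison Ppargc1a was lower with MUNC (-6.21 ± 0.66, adjusted p = 4.56e-05) and Cycs, cytochrome c, also (-1.63 ± 0.24, adjusted p = 0.000384). The differentiation changes of Ppargc1a in the WT-labelled EV and MUNC lines, given above, differed by less than this. Its gap was therefore not confined to DM.

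In the knockout-labelled cells 0 members and 0% of all genes were called for MUNC in GM or DM by edgeR. At an unadjusted p under 0.05 there were 3 members in GM and 0 in DM, and DESeq2 called 0 in both. The members' median difference was -0.05 in GM and 0.02 in DM, beside 0.002 and 0.01 over all genes.

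**Figure D5:**
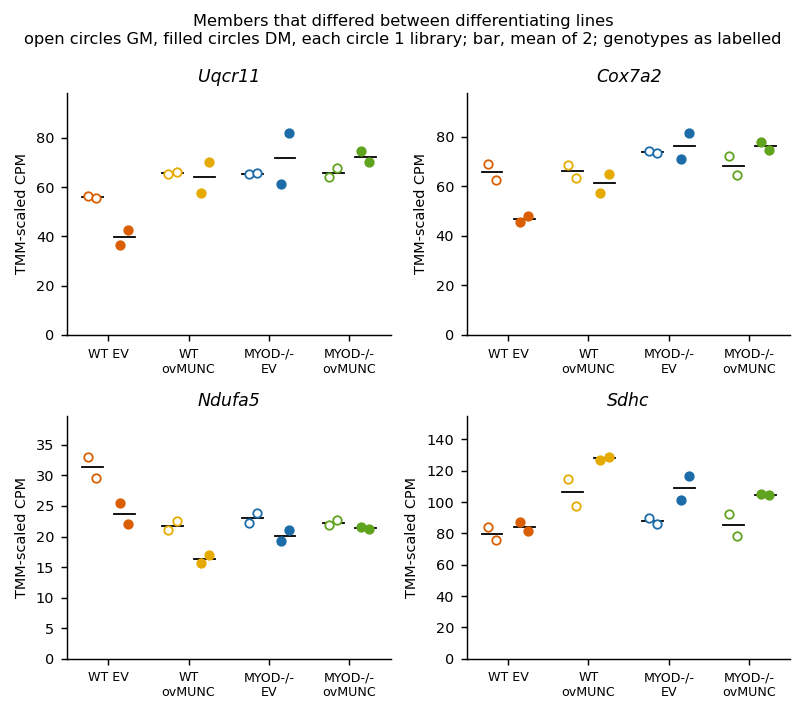
TMM-scaled CPM of 4 members that differed between lines, in each library (vertical axes), by line on the horizontal axis. Open circles are GM, filled circles DM and bars the mean of 2 libraries; in WT-labelled EV DM, Uqcr11 and Cox7a2 lie below every other library, and Sdhc is highest in WT-labelled MUNC DM.

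Whether the response to differentiation itself differed between lines was tested with interaction terms, and no member passed. Between the genotype labels 0 members were called with EV and 0 with MUNC, where 2.58% and 1.38% of all genes were, and 0 for MUNC against EV in the WT-labelled cells, where 3.33% were. At an unadjusted p under 0.05 there were 13, 3 and 5 members, and DESeq2 called 1, 0 and 0. The medians of the members were 0.20, 0.20 and 0.12, beside 0.02, 0.00 and 0.01 over all genes. The interactions with EV and with MUNC in the WT-labelled cells share the WT-labelled EV libraries. For Uqcr11 the difference in response between the genotype labels with EV was 0.63 ± 0.20, adjusted p = 0.141, and for Cox7a2 it was 0.54 ± 0.16, adjusted p = 0.11. A p that misses the threshold does not show that the lines responded alike.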

How the data were processed

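Poly(A) RNA of C2C12 lines was sequenced in 16 libraries (paired reads of 75 bases), 2 per group; the labels gave each library its group. The authors quantified transcripts with kallisto, per the submitters' processing notes, which also name bcl2fastq and mm10; the sources used here give neither versions nor the strand setting. The deposited tables hold estimated counts and TPM per transcript, per the file headers. Estimated counts were summed per gene symbol and rounded to whole numbers. Of 35818 transcripts, 35487 were matched to a RefSeq table and 193 to GENCODE, and 138 had no symbol (0.280% to 0.941% of counts). Small subunits have processed pseudogenes, so reads may be shared between copies, and members are short (median longest transcript 707 bases, against 2153 over all genes).

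The main test was edgeR 4.0.16 (R 4.3.3): TMM factors, filterByExpr (14972 genes), 1 model with a mean per group over all 16 libraries, the quasi-likelihood F test (8 residual degrees of freedom, prior 3.19, common dispersion 0.0474), and Benjamini-Hochberg adjustment over all genes at 0.05, for 16 comparisons. The script was tested on simulated data for differentiation in the knockout-labelled EV line. It recovered 2.99% of 67 changes of 1.5-fold, 40.3% of 67 of 2-fold and 89.4% of 66 of 4-fold. False calls were 2.22% of calls. Far fewer genes changed there than were called in the data. A member that did not pass may still have changed. Alternatives were DESeq2 1.42.0, its size factors, other filters, limma 3.58.1 on log2(TPM + 1), the replicate number as a block, each library left out, and, added after the data were seen, a length offset and TMM-scaled TPM. With 1 library left out, a lone library was assumed to vary like the other groups. Intervals and floors cover counting error only.

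The members and lists were chosen with earlier results of these data known. Named members were the isoform pairs, Sdha to Sdhd, Ndufs1, Ndufv1, Uqcrc1, Uqcrc2 and Uqcrfs1, the highest and lowest by TPM in each complex, and up to 4 each way with the largest change per comparison. Ndufs3, Ndufs8, Ndufa1, Ndufa3, Ndufa7, Ndufa13, Ndufc1, Uqcr10 and the pathway examples were named after their values were seen. Results for 1 member that the rule names are not reported here; it is counted in the totals.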

Additional observations from a re-analysis of the deposited data

How the results depend on the processing

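Counts of called members are given here over both directions. The shares of all genes called are not given per setting, so these counts do not compare the members with other genes. The cause of each shift was not tested unless stated. Without a filter on low counts, where more genes enter the adjustment, 12 members were called for differentiation in the WT-labelled EV line (19 in the main test) and 9 in the knockout-labelled EV line (14). In the same setting 1 was called for the genotype label in EV GM (2), 11 in EV DM (17), 1 in MUNC GM (2) and 3 in MUNC DM (7), and 2 for MUNC in WT-labelled GM (4). With limma on log2(TPM + 1), 32 and 38 were called for differentiation in the knockout-labelled EV and MUNC lines (14 and 15), 4 and 18 for the genotype label in MUNC GM and DM, and 8, 1 and 1 for the interactions with EV, with MUNC and for MUNC in the WT-labelled cells (0 each). Among values called by edgeR or on that scale, 5 differed in sign between them. On that scale Cox4i1 in the knockout-labelled MUNC line was at 0.26. In the average of the lines Cox6a1 was at 0.19, Uqcrfs1 at 0.034, Ndufc2 at 0.0034 and Ndufs8 at 0.0083. Sign changes without a call on either scale were not counted. DESeq2 called 5 and 15 for the genotype label in MUNC GM and DM and 1 for the interaction with EV. A filter of 5 CPM in 2 libraries called 1, 14 and 1 in these. With limma on TMM-scaled TPM the counts were 5, 12 and 2, with 1 in EV GM and 1 for the interaction of MUNC in the WT-labelled cells.

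Replicate numbers were shared between groups. Same-numbered libraries deviated together, with a correlation over 0.1, in 23 of 28 pairs of groups (median 0.255, range -0.0126 to 0.712), and replicate 2 of every group had more Zrsr1 than replicate 1. This is a hint from the data that the numbers mark something shared; the labels name no shared batch and not every pair passed 0.1, so the block was kept as an alternative. With the replicate block, 5 members were called in MUNC GM, 15 in MUNC DM and 1 for the interaction with EV, and all 152 main calls passed.

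Leaving out 1 library gave 8 to 11 called members for differentiation in the WT-labelled EV line, 10 to 11 in the WT-labelled MUNC line, 6 to 9 in the knockout-labelled EV line and 6 to 14 in the knockout-labelled MUNC line. It gave 28 to 34 in the average of the lines (31). For the genotype label it gave 0 to 1 in EV GM, 5 to 10 in EV DM, 0 to 2 in MUNC GM and 2 to 3 in MUNC DM, and for MUNC in the WT-labelled cells 0 to 2 in GM and 8 to 13 in DM. Of the 152 calls, 56 were made without each library in turn. With 2 libraries per group, and at most 13 counts in GM for Cox6a2 and 2 for Cox8b, the size of the change of the scarce isoforms is loosely bounded.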
